A study of Drosophila melanogaster with 14 samples.

Results

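This comparison sets BG3 cells (ML-DmBG3-c2, a Drosophila line that came from larval central nervous system) treated with double-stranded RNA against Polycomb (Pc) beside mock-treated cells of the same line. All 7624 genes of the deposited table enter it, so its members are the whole of the table. The table itself holds no gene whose highest group mean was under 798. The labels place 2 libraries under Pc RNAi and 6 under Mock, out of 14 libraries of total RNA from which ribosomal RNA had been removed. Cells of both groups grew in the same medium with serum and insulin, the double-stranded RNA was added to the medium, and a mixture of fragments per target was used in most experiments, per the labels' protocols. The Ph RNAi (3 libraries) and Sce RNAi (3) groups, treated in the same way against polyhomeotic and Sex combs extra, other PRC1 genes, are used for a few values only. The values are means that the authors took over each group's libraries for every gene, as a signal on a common total. The spread between libraries and their depth are therefore unknown here, and no error stands beside a mean. Replicates carry numbers in the labels, without a statement that they were separate cultures, so the authors' p-values may measure technical spread only. In what follows a gene rose or fell only where its q-value for Pc against Mock in the authors' deposited table was under 0.05, and folds are the ratio of the group means, Pc over Mock.

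Pc is the chromodomain subunit of Polycomb Repressive Complex 1 (PRC1). It binds the trimethylated lysine that Polycomb Repressive Complex 2 (PRC2) places on histone H3, and PRC1 holds Hox genes and many other developmental regulators silent outside the body regions where they act. Trithorax group proteins act against this silencing. The series title names active genes as well, so the genes already transcribed in Mock are described apart from the silent ones below.

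The RNA of Pc itself was looked at first, as a check of the labels. Its authors' mean was 136729 in the cells labelled Pc RNAi, against 6367 in Mock cells, a ratio of 21.5, and it did not pass in the authors' deposited table (q = 0.13). The signal thus lay above Mock and not below it. The signal may hold reads of the added double-stranded RNA as well as of the gene, so it checks neither the depletion nor its size. The other labelled groups had means of 7868 (Ph RNAi) and 6768 (Sce RNAi). The cells are called Pc-labelled cells from here on, and every direction is theirs against Mock cells. As for the tissue of origin, the neuronal RNA-binding gene elav had a mean of 19887 in Pc-labelled cells and 17293 in Mock cells, while 9 of the neuron genes looked for were in the table, and the synaptic genes brp, Syt1 and nSyb were not analysed here.

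Many more genes rose than fell. Of 7624 genes, 232 rose, which is 3.04%, and 11 fell, which is 0.144%. The median ratio was 3.90 among the genes that rose and 0.456 among those that fell. At an unadjusted p under 0.05 in the authors' deposited table, 900 of the 7624 genes were higher and 200 lower. Counts of list members at that p, given below, are to be read beside these. By size alone, without any test, 417 genes (5.47%) were at least 2-fold higher and 401 (5.26%) at least 2-fold lower. Of these, 175 higher and 9 lower genes were among those that passed. Both size counts are conditioned by the listing, because a gene with a Mock mean under 798 had to be high in a labelled group. In each of 4 equal groups of genes with a Mock mean of at least 798, more genes were 2-fold lower than higher. The group with the lowest Mock means held 120 higher and 205 lower genes, and that with the highest 29 and 59. The middle of the table moved little: the median log2 ratio was 0.048, and the quartiles were -0.32 and 0.36. In bulk RNA a change in the share of cells of some type and a change of RNA per cell cannot be told apart, and this holds for every result here.

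**Figure D1:**
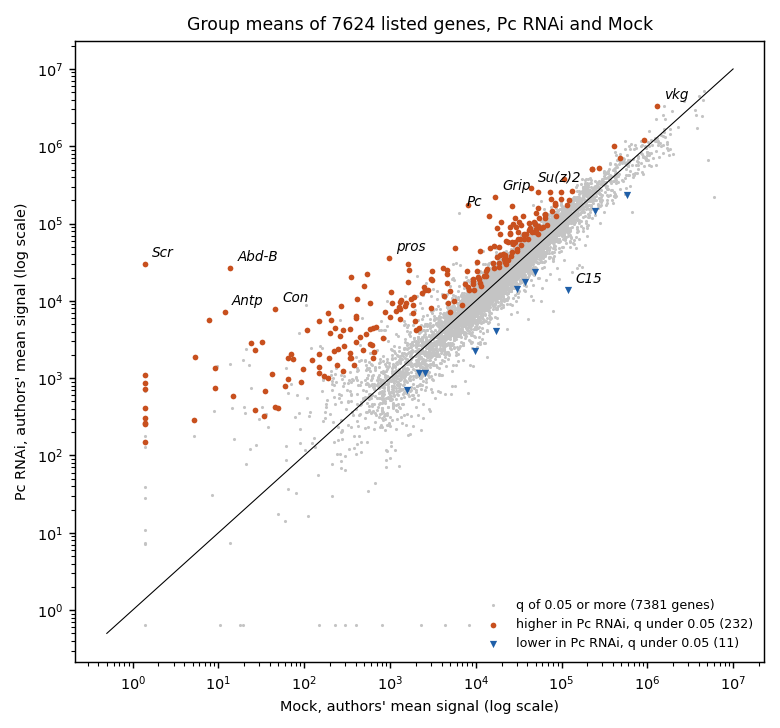
Authors' mean signal of each listed gene in Pc-labelled cells (vertical, log scale) against Mock cells (horizontal, log scale), with the line of equal means. The 232 genes that rose (orange) spread over the whole range of Mock levels and reach furthest from the line at the left, where Scr, Abd-B and Antp lie, and the 11 that fell (blue triangles) include C15.

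The listed Hox genes were nearly silent in Mock cells and rose in Pc-labelled cells. Hox genes encode the homeobox factors that give segments along the body axis their identity, and all 5 that the table lists rose. Scr, which acts in the labial and anterior thoracic segments, had an authors' mean of 29800.2 in Pc-labelled cells and the lowest value of the Mock column, 1.40, in Mock cells, so no fold is given. Abd-B, the gene of the posterior abdomen, had 26282 in Pc-labelled cells and 13.7 in Mock cells, and the thoracic gene Antp had 7149 and 11.8. Of the other genes of the bithorax complex, abd-A, of the anterior abdomen, had 744 in Pc-labelled cells and 9.16 in Mock cells, and Ubx, of the posterior thorax, had 284 and 5.18. Their q-values in the authors' deposited table were 0.002 (Scr), 0.002 (Antp), 0.001 (Abd-B), 0.001 (abd-A) and 0.000 at 3 decimals (Ubx). The noncoding RNA msa, which is transcribed within the bithorax complex, also rose, with a mean of 149.9 in Pc-labelled cells and that same lowest value of 1.40 in Mock cells. Each of these genes was near or at no signal in Mock cells. Such a gene is listed at all only because some labelled group was high, as the lower limit of 798 on the highest group mean shows. The count of Hox genes that rose is conditioned in the same way.

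The Hox genes did not share one order across the labelled groups. For Scr the mean of 29800.2 in Pc-labelled cells stood beside 3796 with Ph RNAi and 774 with Sce RNAi. Ubx showed the opposite order of Pc and Ph, with 284 in Pc-labelled cells, 4261 with Ph RNAi and 57.4 with Sce RNAi. Abd-B was at 26282, 28606 and 9393 in the Pc, Ph and Sce groups. These groups share the Mock libraries, values per library were not used here, and the differences between them were not tested.

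Other developmental transcription factors followed the Hox genes in part. Of 50 listed factors, 14 rose and 1 fell, where 3.04% of all genes rose and 0.144% fell. The median log2 ratio of the list was 1.95 against 0.048 over all genes. Those that rose from some signal in Mock cells were led by the paired-box gene Poxm, an early mesoderm factor, at 22081 in Pc-labelled cells and 536 in Mock cells (41.2-fold), and by teashirt (tsh), a trunk identity gene, at 25045 and 1660.0 (15.1-fold). The eye gene so had 2098 in Pc-labelled cells and 341 in Mock cells, and the homeobox gene NK7.1, already active in Mock cells, had 57829 and 23835 (2.43-fold). The rest came up from almost nothing. The spalt gene salr, active in wing and sensory organ patterning, had 4203 in Pc-labelled cells and 108 in Mock cells, and its neighbour salm had 1895 and 5.37.

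The GATA factor gene grn had a mean of 2892 in Pc-labelled cells and 23.9 in Mock cells, and the posterior patterning gene cad had 2971 and 32.7. The teashirt paralog tio had 1131 in Pc-labelled cells and 42.0 in Mock cells, the Sox gene SoxN of the early nervous system 688 and 35.0, and the POU gene vvl 323 and 34.4. The T-box gene bi, the POU gene nub and the LIM-homeobox gene ap, all of which act in wing patterning, had 1094, 716 and 407 in Pc-labelled cells and were each listed at 1.40, the column's lowest value, in Mock cells. Several large ratios did not pass: croc, a forkhead gene, had 5730.0 in Pc-labelled cells and 7.76 in Mock cells and the homeobox gene Dr had 3824 and 87.5, with q = 0.1 for croc and 0.117 for Dr in the authors' deposited table. C15 fell. This homeobox gene, which patterns the tip of the leg, had 13739 in Pc-labelled cells and 119290.3 in Mock cells. When the list is limited to the 18 factors with a Mock mean of at least 798, 2 rose, 1 fell and the median log2 ratio was -0.33. The high median of the whole list thus came from the factors under that level in Mock cells. Those factors are listed only because some labelled group was high, which conditions the count and the median of the whole list. Of all 363 listed genes under that Mock level, 78 rose (21.5%).

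**Figure D2:**
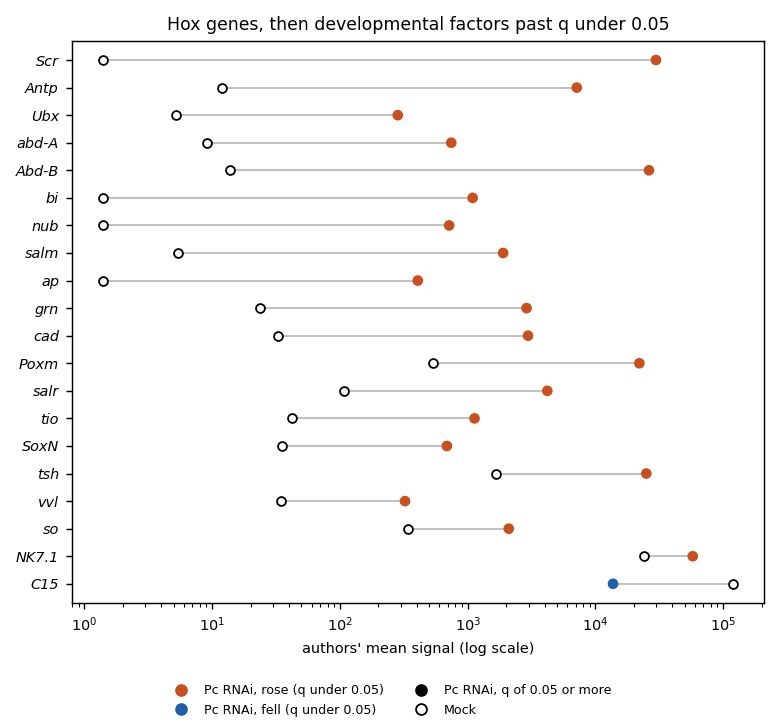
Authors' mean signal (log scale) of the 5 listed Hox genes and of the developmental factors with q under 0.05, ordered by ratio, in Pc-labelled cells (filled) and Mock cells (open). Scr, bi, nub and ap sit at 1.40, the lowest Mock value, and C15 is the gene whose Pc-labelled value lies left of its Mock value.

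Further regulators outside that list rose too, and are named after their values were seen. The homeobox genes btn, dve and Vsx1 had ratios of 32.4, 9.45 and 8.80. The homeobox gene unc-4 had 252 in Pc-labelled cells and the lowest value of 1.40 in Mock cells. The ARID factor gene retn had 412 in Pc-labelled cells and 49.6 in Mock cells. The zinc finger genes elB and mamo, active in both groups, rose 3.75-fold and 2.18-fold.

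Some of the genes that rose lie next to one another. After matching to the RefSeq annotation of Release 6, which gave 7528 genes a place, 39 of the 230 matched genes that rose (17.0%) were next to another gene that rose, counting only listed genes as neighbours. They formed 22 such pairs, out of 7497 pairs of neighbouring listed genes, of which 433 held at least 1 gene that rose, and up to 11 annotated genes that are not listed lay between the partners. In the bithorax complex Ubx, abd-A, msa and Abd-B followed each other, and the run went on to Ahcy89E, named AhcyL2 in RefSeq, with 1463 in Pc-labelled cells and 376 in Mock cells. In the Antennapedia complex Scr and Antp were such a pair. Other pairs were salr with salm, and Psc with Su(z)2.

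Between tsh and tio lay CG1428, which had 5698 in Pc-labelled cells, 1.48 with Ph RNAi, the minimum of that column, 6608 with Sce RNAi and 7.76 in Mock cells. A run on chromosome arm 3R held CG31462 and CG43462, both of which RefSeq places in the gene CG45263, then Obp85a and CG11737. CG31462 rose 21.0-fold, to 172063 in Pc-labelled cells against 8203 in Mock cells, and CG43462 8.98-fold, to 126847 against 14126, and reads of these overlapping models may have been divided between them. The odorant-binding protein gene Obp85a had 903 in Pc-labelled cells and 92.0 in Mock cells, and CG11737 rose 1.76-fold. The shot and CG13344, crb and Nab2, and Fs and scb pairs were also among them. Whether neighbours overlap in their reads was not tested, and no source used here says whether reads were counted by strand.

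Among the Polycomb group genes themselves, the ring finger genes Su(z)2 and Psc rose. Su(z)2 had 286541 in Pc-labelled cells and 44132 in Mock cells (6.49-fold), and Psc, its paralog and a core PRC1 subunit, had 77736 and 30979.7 (2.51-fold). They were 2 of the 9 listed PRC1 genes. The subunit genes ph-p and ph-d had ratios of 1.29 and 1.27, near-identical neighbours between which reads may have been divided, and the ubiquitin ligase gene Sce had 0.876; none of these passed. None of 8 PRC2 genes passed, with ratios between 0.702 (Pcl, which helps PRC2 bind) and 1.28 (esc, the WD40 subunit), nor did any of 5 genes of PhoRC and the H2A deubiquitinase. At an unadjusted p under 0.05 in the authors' deposited table there were 0 PRC2 genes, 0 of the PhoRC and deubiquitinase genes and 1 Trithorax group genes. Of 22 Trithorax group genes 0 rose and 0 fell, although 16 had a ratio above 1, among them the remodelling ATPase gene brm at 1.65 and its partner osa at 1.51. The median log2 ratios were 0.15 (PRC2) and 0.18 (Trithorax group), against 0.048 over all genes.

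The signalling genes that rose included ligands, receptors and the feedback inhibitor Dad, where 3.04% of all genes rose. Of 45 listed pathway genes for Wnt, Hedgehog and Dpp 6 rose and 0 fell, with a median log2 ratio of 0.20. Among them bi and salm are also counted above. Of the 41 with a Mock mean of at least 798, 3 rose. The other risers, dpp, bi and salm, are listed only because a labelled group was high. The BMP ligand gene dpp had 1319.6 in Pc-labelled cells and 96.9 in Mock cells, and the feedback inhibitor Dad of the same pathway had 8041 and 3036 (2.65-fold). The Hedgehog receptor ptc, itself a target of the pathway, rose 3.03-fold, to 75457 in Pc-labelled cells against 24935 in Mock cells. The beta-catenin gene arm rose 1.31-fold, to 1195036 in Pc-labelled cells against 914465 in Mock cells. The Hedgehog pathway factor ci had a ratio of 0.454 and the secreted factor shf, which helps Hedgehog spread, 0.175, and neither passed.

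Of 25 genes of EGF and FGF receptor signalling 22 had a ratio above 1 and 2 rose, with a median log2 ratio of 0.44. Among the genes that rose was the receptor kinase gene sev, at 22167 in Pc-labelled cells and 4592 in Mock cells (4.83-fold). Of 11 JAK-STAT genes 2 rose, namely the ligand gene upd3 at 3411 in Pc-labelled cells and 449.7 in Mock cells (7.59-fold) and the target gene chinmo at 2031 and 71.0. Both had Mock means under 798, so they are listed only because a labelled group was high. Of the 9 JAK-STAT genes with a Mock mean of at least 798, 0 rose. The feedback inhibitor Socs36E had a ratio of 2.46 without passing. None of 21 Notch pathway genes passed, where the Enhancer of split gene HLHm3 had the largest ratio at 7.83 with q = 0.086 in the authors' deposited table. None of 17 ecdysone genes passed. At an unadjusted p under 0.05 in the authors' deposited table there were 3 Notch pathway and 0 ecdysone genes. Over all 7624 genes, 900 were higher and 200 lower at that p. In the immune list of 18 genes, spz, the ligand of Toll, rose 2.85-fold; pirk, a negative regulator of the Imd pathway that was not on the list, rose 7.81-fold.

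Marker genes of cell types moved in part, where 3.04% of all genes rose. Of 7 listed genes of neural precursors 3 rose: pros, which drives daughter cells out of the neuroblast program, at 35847 in Pc-labelled cells and 970.1 in Mock cells (37.0-fold), the zinc finger gene klu at 7027 and 192 (36.7-fold), and SoxN. Of the 5 neural precursor genes with a Mock mean of at least 798, 1 rose. The genes klu and SoxN were under that level and are listed only because a labelled group was high. Of 16 glial genes 3 rose, while 12 had a ratio above 1 and 4 a ratio below 1, with a median log2 ratio of 0.42. Among the 4 below was wun2, at 0.245 of Mock without passing. The glial determinant repo had 13815 in Pc-labelled cells, 138658 with Ph RNAi and 2567 in Mock cells, and its ratio for Pc was 5.38. The axonal support gene axo had 13123 in Pc-labelled cells and 1016 in Mock cells, and the adhesion gene Nrg had 98984 and 27058. The summed signal of the glial list was 800441 in Pc-labelled cells and 660419.8 in Mock cells, and that of the neural precursor list was 216454 and 147716. The glial gene gcm, which starts glial fate, and the neuroblast gene ase were not analysed here.

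None of 9 neuron genes passed. Of these, 5 had a ratio above 1 and 4 below 1, with a median log2 ratio of 0.20. Their summed signal was 374671 in Pc-labelled cells and 470459 in Mock cells, most of it from unc-13, at 223307 and 292160. Of 12 muscle genes the integrin gene if rose, while 9 had a ratio above 1 and 3 a ratio below 1. The mesoderm gene twi had 1411 in Pc-labelled cells and 236 in Mock cells without passing. With that Mock mean, twi is listed only because a labelled group was high. The actin gene Act87E went the other way, at 2488 in Pc-labelled cells and 9141 in Mock cells, also without passing. The hemocyte list of 14 genes had 2 that rose, Tig and vkg, both of which encode matrix proteins. Its defining gene Hml had 2433 in Pc-labelled cells and 162 in Mock cells (q = 0.073 in the authors' deposited table). Of the 14 genes 6 had a ratio above 1 and 8 below 1, among the latter Fer2LCH at 0.176 without passing. The median log2 ratio of the hemocyte list was -0.093, and its summed signal was 7944478 in Pc-labelled cells and 4529658 in Mock cells, most of it from vkg and Cg25C. The 4 listed genes of fat body, gut and germline were germline genes, and none passed. Neuron genes with an unadjusted p under 0.05 in the authors' deposited table numbered 2, and germline genes 0. What part a shift between cell types has in these values was not tested.

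Genes of cell adhesion, epithelial polarity and the extracellular matrix were among those that rose, where 3.04% of all genes did. Of 18 integrin and matrix genes 4 rose and 0 fell. The alpha integrin gene if had 168991 in Pc-labelled cells and 26702 in Mock cells (6.33-fold), and scb, another alpha integrin gene, had 377274 and 105572 (3.57-fold). The integrin ligand gene Tig had 9798 in Pc-labelled cells and 1323 in Mock cells (7.41-fold). The collagen IV gene vkg had 3324058 in Pc-labelled cells, 911413 with Ph RNAi and 1301395 in Mock cells, a ratio of 2.55 for Pc; its partner Cg25C had 3347330.4 in Pc-labelled cells and 1551287 in Mock cells with q = 0.075 in the authors' deposited table. The beta integrin gene mys had a ratio of 1.68 and the laminin gene LanB1 one of 0.683, and neither passed.

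Of 31 genes of axon guidance and adhesion 5 rose and 0 fell, while the median log2 ratio of the list was -0.0086. The leucine-rich repeat adhesion gene Con had 7752 in Pc-labelled cells and 46.2 in Mock cells, so it is listed only because a labelled group was high. Of the 30 genes of this list with a Mock mean of at least 798, 4 rose. The apical determinant crb had 18425 in Pc-labelled cells and 3101 in Mock cells (5.94-fold), the polarity kinase gene aPKC had 258633 and 53614 (4.82-fold), and shg, which encodes E-cadherin, had 204848 and 74784 (2.74-fold). Fas2, a neural cell adhesion gene, rose 3.50-fold. The polarity gene baz, which was not on the list, rose 1.68-fold. The guidance ligand gene sli stood the other way, at 141112 in Pc-labelled cells and 664754 in Mock cells, but did not pass (q = 0.174 in the authors' deposited table).

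Among genes that have a name beyond a CG number and whose mean level reached the median of the table, Grip had the largest ratio after Pc itself. This gene of a glutamate receptor interacting protein, which acts in muscle guidance, had 222249.8 in Pc-labelled cells and 16944 in Mock cells (13.1-fold). The filamin gene cher rose 8.32-fold, the myoblast fusion gene rols 5.27-fold, the inositol trisphosphate kinase gene IP3K1 4.96-fold, the chitinase gene Cht2 4.17-fold, the transmembrane gene kon 3.82-fold and the immunoglobulin adhesion gene sdk 3.54-fold. Ect3 and Idgf3, a chitinase-like growth factor gene, had ratios of 3.72 and 3.69 without passing (q = 0.13 and 0.092 in the authors' deposited table). Of other genes with small q-values, the anion exchanger gene Ndae1 rose 18.4-fold, the patched-related gene Ptr 16.2-fold, the leucine-rich repeat gene ltl 14.8-fold, pxb 14.7-fold and hoe1 10.8-fold. The formin gene form3 rose 6.12-fold and the transporter gene MFS16 1.46-fold.

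**Figure D3:**
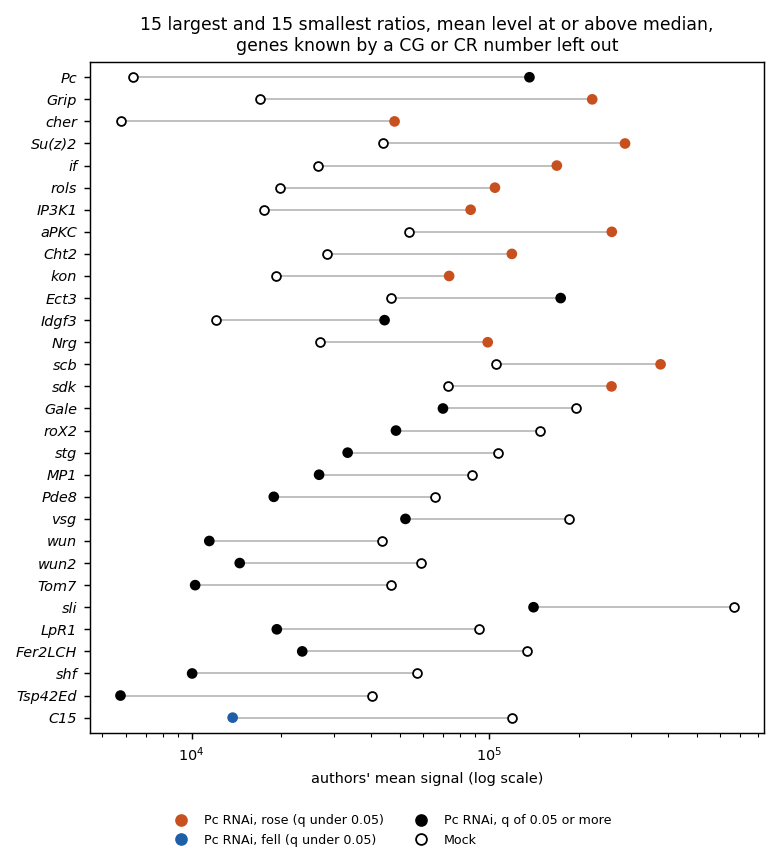
Authors' mean signal (log scale) in Pc-labelled cells (filled) and Mock cells (open) of the 15 genes with the largest and the 15 with the smallest ratios, among genes whose mean level reached the table's median and leaving out those known by a CG or CR number. Among the 15 with the largest ratios Pc, Ect3 and Idgf3 did not pass (black), and among the 15 with the smallest ratios C15 was the gene that passed (blue).

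Genes already active in Mock cells made up most of those that rose, with smaller folds. Of the 7261 genes with a Mock mean of at least 798, 154 rose (2.12%), with a median ratio of 2.22; of the other 363 genes 78 rose (21.5%). That difference in share is conditioned by the listing, because a gene low in Mock cells had to be high in a labelled group to be in the table. In 4 equal groups of the active genes, from low to high Mock level, the share that rose was 2.75%, 1.65%, 2.26% and 1.82%. The median ratio of the risers was 5.43 in the lowest of these groups and 2.01 in the highest. Examples of small increases, named after their values were seen, were the cytoplasmic actin gene Act42A at 1000891 in Pc-labelled cells and 411236 in Mock cells (2.43-fold) and the spectraplakin gene shot (2.23-fold).

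Motor and membrane traffic genes were among the risers of this size, again named after their values were seen. The kinesin heavy chain gene Khc rose 1.67-fold, the dynein light intermediate chain gene Dlic 1.74-fold and the myosin VI gene jar 2.08-fold. The recycling endosome gene Rab11 rose 1.51-fold, the retromer gene Vps26 1.85-fold, the ESCRT ATPase gene Vps4 2.01-fold and the SNARE genes Sec22 and Ykt6 2.09-fold and 1.88-fold. Of genes that sense nutrients, the insulin receptor gene InR rose 1.92-fold, Tsc1 1.56-fold and SNF4Agamma, a subunit of AMP-activated kinase, 1.83-fold. No list of such genes had been set up, and no theme is drawn from them. In all, 88 of the 232 genes that rose are known in the table only by a CG number, and 45 are on one of the lists used here.

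C15 had the lowest ratio of the 11 genes that fell, at 0.115 of Mock. CG8180 followed at 0.229 and CG3192, named ND-ASHI in RefSeq and a subunit gene of respiratory complex I, at 0.237, then CG14629 at 237627 in Pc-labelled cells and 578984 in Mock cells, slx1, a subunit gene of a DNA structure-specific nuclease, at 0.443, and UGP, which makes UDP-glucose, at 0.462 of Mock. CG14642 and CG12093 had ratios of 0.465 and 0.478. The septin gene pnut, needed in cytokinesis, had 143971 in Pc-labelled cells and 246029 in Mock cells (0.585). The remaining ones were the histone H3 copies His3:CG33854 at 0.546 and His3:CG33863 at 0.456, members of a repeat, and which copy their reads came from is uncertain.

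Other genes stood well below Mock without passing. The tetraspanin gene Tsp42Ed had 5767 in Pc-labelled cells and 40518 in Mock cells, and the ferritin light chain gene Fer2LCH had 23548 and 134094. The lipid phosphatase genes wun2 and wun had ratios of 0.245 and 0.262, the lipophorin receptor gene LpR1 0.209, the mitochondrial import gene Tom7 0.219 and the cell cycle phosphatase gene stg 0.313. None of 7 dosage compensation genes passed, and 2 had an unadjusted p under 0.05 in the authors' deposited table. The noncoding RNA roX2 of the dosage compensation complex had 48653 in Pc-labelled cells and 147897 in Mock cells (q = 0.06 in the authors' deposited table), and roX1 had 242 and 1851 (q = 0.256, also in the authors' deposited table). Over the 1316 matched genes of the X chromosome, on which that complex acts, the median log2 ratio was 0.073, and on the large autosome arms it lay between 0.015 (2L) and 0.055 (3R).

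Some genes were listed at the lowest value of the Pc column, 0.65, shared by 12 genes, and none of these passed. They include the autophagy gene Atg8b, at 0.65 in Pc-labelled cells, 1.48 with Ph RNAi, 0.77 with Sce RNAi and 8348 in Mock cells, where each labelled group is at its column's minimum. In the other direction 20 genes were at the Mock minimum of 1.40, of which 9 rose. No fold is given for these.

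Genes of basic cell functions mostly stayed near Mock. None of 16 glycolysis genes, 15 tricarboxylic acid cycle genes, 29 proteasome genes, 10 cohesin genes, 13 RNA interference genes, 15 apoptosis genes or 48 genes of RNA polymerase II, TFIID and Mediator passed, and their median log2 ratios lay between -0.10 (RNA polymerase II, TFIID and Mediator) and 0.19 (cohesin). At an unadjusted p under 0.05 in the authors' deposited table these lists held 1, 0, 4, 2, 2, 2 and 3 genes in that order. Over all 7624 genes, 900 were higher and 200 lower at that p. The Argonaute gene AGO2, the slicer of the RNA interference pathway, had a ratio of 2.00 (q = 0.065 in the authors' deposited table). The cell cycle list of 53 genes had 1 that rose, the anaphase regulator fzy at 1.77-fold, and a median log2 ratio of 0.014. Heat shock and chaperone genes (22 listed) had a median of -0.17 and none passed, with ratios of 1.66 for Hsp83 and 0.444 for the small heat shock gene Hsp23, and 3 of them had an unadjusted p under 0.05 in the authors' deposited table.

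Most cytosolic ribosomal protein genes had lower means in Pc-labelled cells, and none passed. Of 83 listed, 73 had a ratio under 1, and the median log2 ratio was -0.45 on a scale where all genes had 0.048. RpL9 had 795721 in Pc-labelled cells and 1989637 in Mock cells, and RpS5a had 570065 and 1262379, while RpL41 stood above Mock at a ratio of 2.09. The 24 translation factors had a median of -0.12 and the 72 mitochondrial ribosomal protein genes one of -0.092, with no gene of either list passing. At an unadjusted p under 0.05 in the authors' deposited table there were 9 cytosolic and 5 mitochondrial ribosomal protein genes and 2 translation factors. Over all 7624 genes, 900 were higher and 200 lower at that p. The 96 listed copies of replication-dependent histone genes, of which 2 fell, did not all lie on one side of Mock. All 22 copies of H4 had a ratio under 1 (median log2 ratio -0.55), as did 16 of 18 copies of H3 (median -0.81) and 11 of 13 of H2B (median -0.31), while 17 of 23 copies of H1 (median 0.31) and 14 of 20 of H2A (median 0.099) had a ratio above 1. Summed over copies, the ratio was 0.617 for H4, 0.947 for H3, 0.798 for H2B, 1.21 for H1 and 1.05 for H2A. The summed H3 signal was thus nearer to Mock than the median of its copies. These copies share their sequence and are not independent of one another.

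**Figure D4:**
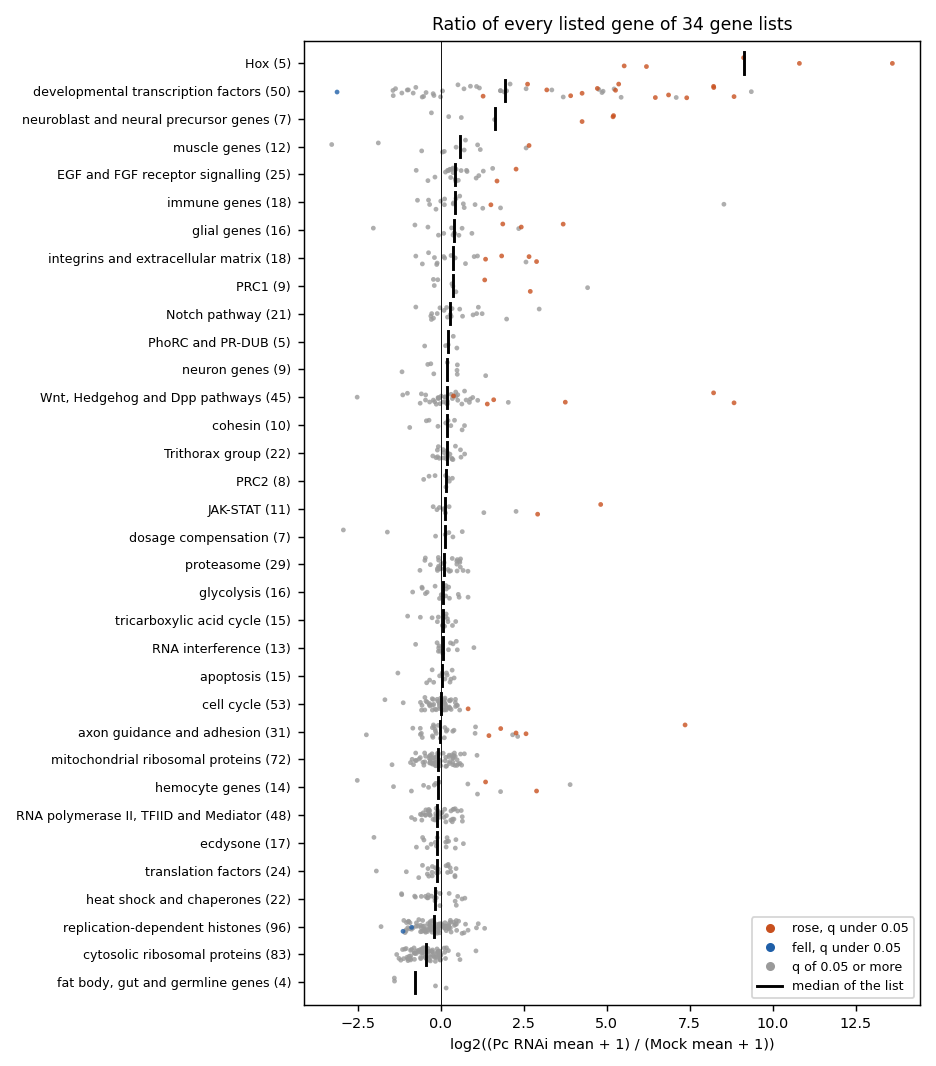
Log2 ratio of Pc-labelled over Mock means, with a pseudocount of 1, for every listed gene of 34 gene lists (number of genes in parentheses), each point a gene and each black bar a list's median. The Hox list lies furthest right with all its genes orange, most lists hold to the line at 0, and cytosolic ribosomal protein genes lie left of it without a gene that passed.

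Ratios also moved with exonic length, taken per gene over the merged exons of all its transcripts. In the Ensembl annotation of BDGP6 the median exonic length was 3486 bp for the genes that rose, 1384 bp for those that fell and 2152 bp for all 7528 genes with a length. In 5 groups of equal size, from short to long, the median log2 ratio was -0.21, -0.091, 0.054, 0.19 and 0.25. The share of genes that rose was 0.597%, 1.33%, 3.19%, 4.05% and 6.11% in the same order. Across these genes, which are not independent replicates and share the same libraries, the Spearman rank correlation of the log2 ratio with exonic length was 0.313. The lists differ in length as well. Median lengths were 909.5 bp for cytosolic ribosomal protein genes, 529 bp for histone copies and 783 bp for mitochondrial ribosomal protein genes, but 5477 bp for Hox genes, 6224 bp for integrin and matrix genes and 6263 bp for axon guidance and adhesion genes. For EGF and FGF receptor signalling genes the median length was 4559 bp and the median log2 ratio 0.44. For Trithorax group genes these were 5925.5 bp and 0.18, where the longest of the 5 groups had 0.25. The part of length in the results for genes and lists was not tested.

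**Figure D5:**
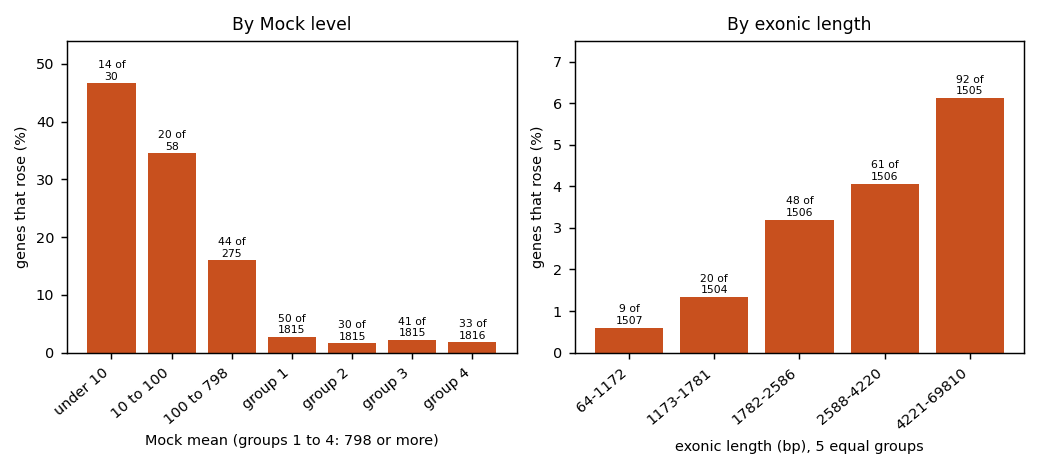
Share of genes that rose in Pc-labelled cells (percent, bars from 0, with counts above) by Mock mean on the left and by exonic length on the right; groups 1 to 4 on the left divide the genes with a Mock mean of at least 798. The share is highest, 46.7%, for genes with a Mock mean under 10, where the listing conditions it, and on the right it goes up from 0.597% in the shortest group to 6.11% in the longest.

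Set beside the other labelled groups, which were compared with the same Mock libraries, the named risers took different levels. Grip was at 222249.8 in Pc-labelled cells, 147213 with Ph RNAi, 76851 with Sce RNAi and 16944 in Mock cells. For pros the means were 35847, 28436, 4343 and 970.1 in the same order of groups, and for klu 7027, 1811, 2133 and 192. The cuticle pigment enzyme gene e (ebony), which rose in Pc-labelled cells, had 1818 there, 659.7 with Ph RNAi, 286 with Sce RNAi and 64.7 in Mock cells. Differences between these labelled groups were not tested.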

How the data were processed

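Total RNA of BG3 cells, depleted of ribosomal RNA, was made into libraries with an Ion Total RNA-Seq kit, as the labels' protocols state. The authors deposited 1 table with the mean signal of each group per gene, its ratio to Mock and, for each ratio, a p-value and a q-value, per the file headers. The signal values share a common total (the sum for Pc exceeded that for Mock by 0.0102%); bedtools is named in the submitters' processing notes, while a division by gene length, the aligner, build, annotation and test are each not given in the sources used here. No column holds values per library (0), so depth, spread and counting intervals are unknown, and nothing was tested anew; 3 further columns of means were not used. A gene passed where the authors' q-value was under 0.05 (deposited to 3 decimals). The fold is the ratio of means Pc over Mock, computed here with pandas 2.3.3, and it differed from the authors' deposited ratio by at most 0.445% where the ratio exceeded 0.1. Log2 ratios took a pseudocount of 1. No fold is given against the lowest value of a column (1.40 in Mock, 0.65 in Pc), read as no signal. The counting steps were tested on simulated data.

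The 35 gene lists, of which 34 had listed genes, and the genes named were chosen with earlier results of these data known, so no list is independent support. Genes were named by rule: the 40 smallest q-values, the 15 largest and smallest ratios at or above the median mean level of both groups among genes not known by a CG or CR number alone, the 12 highest Pc means, the 10 highest in one group among such genes low in the other, PRC1 and Hox genes, and up to 5 genes of each list. Genes marked as such, all genes that fell and those given as neighbours were named after their values were seen. Alternatives were another q threshold, adjustment of the p-values by the Benjamini-Hochberg method, a filter on mean level, a pseudocount of 100 and median-centred ratios. A gene of the EGF and FGF receptor list is counted but not reported by name here.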

Additional observations from a re-analysis of the deposited data

How the results depend on the processing

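With a q-value under 0.1 in the authors' deposited table, 379 genes were higher and 33 lower in Pc-labelled cells, in place of 232 and 11, and with the mean level of both groups at or above its median 95 were higher and 6 lower. The Benjamini-Hochberg adjustment of the authors' rounded p-values gave 197 higher and 8 lower. Of genes at least 2-fold apart, 91 were higher and 80 lower at or above the median mean level, against 417 and 401 over all genes; a pseudocount of 100 gave 387 and 363, and median-centred ratios 390 and 441. No named gene that passed changed direction under a pseudocount of 100 or median-centred ratios, but sizes of genes low in Mock cells did change. With a pseudocount of 100 the median log2 ratio of the Hox genes was 6.02 in place of 9.12. That of the developmental factors was 1.27 in place of 1.95, and the log2 ratio of Ubx 1.87 in place of 5.53. The median log2 ratio of the developmental factors was 1.95 for all listed members and -0.33 for those active in Mock cells. For ecdysone genes it was -0.10 and 0.025, for neuron genes 0.20 and -0.21, and for cell cycle genes it was 0.014 as reported and -0.034 with centred ratios. Every call rests on the authors' own test, whose kind is unknown here. No paired analysis was possible because the table holds group means only, and leaving out single libraries was not run for the same reason. With 2 Pc libraries of unknown depth, a gene that did not pass is not shown to be unchanged.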

Other observations

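Most listed microRNA genes had lower means in Pc-labelled cells than in Mock cells. Of 13 listed genes that RefSeq calls microRNA genes, 12 were at least 2-fold below Mock, and none passed in the authors' deposited table. Their median log2 ratio was -1.68. The values of mir-317 were 469.9 in Pc-labelled cells and 2398 in Mock cells, and those of mir-276a were 188 and 1702; mir-184 was the exception, at 3455 and 2131. The count and the median are conditioned by the listing, because a gene low in Pc-labelled cells had to reach 798 in another group. For mir-4911, at 73.45 in Pc-labelled cells, 188 with Ph RNAi and 139 with Sce RNAi, that group was Mock, at 1260. Total RNA libraries do not measure mature microRNAs. The shortest group of all genes also had a median log2 ratio under 0, at -0.21, and the part of length was not tested. The 52 genes that RefSeq calls long noncoding had a median log2 ratio of -0.56, and 1 of them rose, namely msa.

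Single large ratios that did not pass are worth a second look in values per library. The serine protease inhibitor gene nec had 885 in Pc-labelled cells and the lowest Mock value, 1.40, in Mock cells (q = 0.254 in the authors' deposited table). The gene iab-4 had 1113 in Pc-labelled cells and that same lowest value of 1.40 in Mock cells (q = 0.059 in the authors' deposited table). The flight muscle actin gene Act88F had 116 in Pc-labelled cells and 1135 in Mock cells (q = 0.419 in the authors' deposited table).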
